A study of Mus musculus with 8 samples.

Results

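Cbs, the gene of cystathionine beta-synthase, and 7 further enzymes of the methionine cycle, of transsulfuration and of cysteine breakdown were examined in striatal cells that overexpressed the transcription factor Bcl11b. The set comprised Cbs, Cth, Mtr, Mat2a, Mat2b, Ahcy, Cdo1 and Mpst. All probes that carried the symbol of one of these genes were taken, which gave 14 of the 25697 probes of the array. At least 1 probe was found for 7 of the 8 genes. Mtr, the methionine synthase that remakes methionine from homocysteine, had no probe under its current or older symbols, so its transcript was not measured here. Cbs was selected on its higher signal with Bcl11b on these same arrays, and the other enzymes were added as its pathway neighbours. The values of Cbs are therefore given as a description, without a test.

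Methionine is converted to S-adenosylmethionine, the methyl donor of most cellular methylation reactions, by methionine adenosyltransferase, and the homocysteine left after methyl transfer is either remethylated or passed into transsulfuration. Cystathionine beta-synthase condenses homocysteine with serine, and cystathionine gamma-lyase splits the product to give cysteine, which feeds glutathione, taurine and protein synthesis. Cystathionine beta-synthase, cystathionine gamma-lyase and 3-mercaptopyruvate sulfurtransferase also form hydrogen sulfide, and the first of these is known as a source of this gas in brain.

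The cells were STHdh cells of wild-type genotype, a conditionally immortalized line derived from embryonic mouse striatum. The Bcl11b group (n = 4) had been transfected with pcDNA3.1 carrying the beta isoform of Bcl11b under the vector's viral promoter. The control group (n = 4), which the sample labels call wild-type and which is called mock below, received the empty pcDNA3.1 vector. RNA was taken 2 days after transfection from 4 sets of transfected cells per group, all of 1 cell line. In such bulk RNA, a transcript present in fewer cells and one present at a lower level per cell cannot be told apart. The p-values below measure the spread between these arrays only, and the number of arrays limits their precision.

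A probe was called detected on an array when its detection p, the chance of such a signal among negative control beads, was under 0.01. Between 10121 and 10784 probes were detected per array, 11755 were detected on at least 1 array and 9360 on all 8. Bcl11b replicate 4 stood apart: its best correlation over these 9360 probes was with mock replicate 2 (r = 0.981), whereas with its own group its best was 0.935. None of the 7 marker genes of striatal medium spiny neurons on the array was detected, among them Ppp1r1b, Drd2 and Bcl11b itself, so that the arrays gave no check of the transfected gene. Their summed normalized signal was 116 to 135 in the mock group and 86.9 to 146 in the Bcl11b group. By PCR, the study did find Ppp1r1b, Rgs9 and Bcl11b in STHdh cells. From its arrays, the study also reported Present calls for many genes that it had earlier found enriched in striatum. Among such genes it listed Rgs9 as higher and Bcl11b as lower in the transfected cells, at an unadjusted p under 0.05. It also measured Bcl11b transcript by quantitative PCR in duplicate sets of transfected cells. The progenitor markers Nes, Vim and Sox2 were detected on all 8 arrays, and the progenitor marker Pax6 was not detected. Among fibroblast or mesenchymal markers, Col1a1 was detected on all 8 arrays and Col3a1 on 7, while Col1a2 and Thy1 were not detected. The astrocyte marker Slc1a3 was detected on 4 arrays, and Gfap, Aqp4 and S100b were not detected. Of 4 microglial markers only Cd68 was detected, on 2 Bcl11b arrays and on no mock array, and it passed the listing threshold described below. The summed normalized signal of these 4 genes was 26.0 to 50.1 in the mock group and 65.5 to 124 in the Bcl11b group. Aif1, Itgam and Csf1r were not detected, and the part of such cells in the results was not tested.

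The start of the Cbs gene is shown first because 2 of the 6 short letter runs searched here, which spell the motifs that the study derived from DNA bound by Bcl11b, occurred in it. The stretch is the 250 bases before the RefSeq start site (GRCm38.p6, chr17:31637206-31637455, minus strand), written 5′ to 3′ in the direction of transcription. Capitals mark, in order, a match to TGCTTG on the opposite strand (CAAGCA as written) and a match to AGAGTG on the strand shown.

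Cbs: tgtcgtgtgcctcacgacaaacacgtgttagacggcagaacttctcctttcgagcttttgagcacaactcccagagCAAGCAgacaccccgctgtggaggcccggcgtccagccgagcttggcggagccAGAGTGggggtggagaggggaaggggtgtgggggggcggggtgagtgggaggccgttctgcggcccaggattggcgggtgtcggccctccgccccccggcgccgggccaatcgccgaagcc

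The first match began at position −174 and the second at −121 from the start site. Such letters are common. TGCTTG was present in 13.7% and AGAGTG in 13.6% of 32851 mouse promoter windows, likewise the 250 bases before a start and searched on both strands, 52.8% of the windows held at least 1 of the 6 runs and 18.2% held at least 2. The Cbs window held no match to ACCACA, present in 14.0% of windows, to AGTGCT, present in 12.6%, to AGTGTG, present in 14.3%, or to GGATCA, present in 7.60%. It also held no match to TGATGNAAN, an element of the amino acid stress response present in 3.44% of windows. Among the other members, TGCTTG occurred at 1 of the 3 annotated starts of Mpst, at position −114, and AGAGTG at position −161 from the start of Mat2b. No match was found in the windows of Ahcy, Mat2a or Mtr, and the starts of Cth and Cdo1 were not searched. The Cbs window was 68.0% G and C, against a median of 52.4% over all windows, and 12.2% of the windows were at least as rich. A match is a run of letters only, and binding was not measured on these arrays. The study did measure Bcl11b binding in transfected cells, by chromatin immunoprecipitation and sequencing, and those binding regions are not given here. It proposes that most of its binding sites lie at a distance from proximal promoters.

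Cbs, which catalyses the entry of homocysteine into transsulfuration, went from undetected on every mock array to detected on every Bcl11b array. Both of its probes gave this pattern. Before normalization, the signal of probe ILMN_1230318 was 50.5, 7.79, 12.7 and 13.3 on mock arrays 1 to 4, with detection p of 0.113 to 0.241. On Bcl11b arrays 1 to 4 it was 279, 169.9, 169 and 199.7. The groups did not overlap, and every Bcl11b value lay above the dimmest detected probe of its array (49.9 to 71.7), while every mock value lay below it (69.7 to 139). Probe ILMN_2701582 gave signals of 0.855, −8.12, −19.7 and −1.10 on the mock arrays, where values around 0 are equal to background. Its signals on the Bcl11b arrays were 219, 167, 132 and 165. The groups of this probe did not overlap either.

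**Figure D1:**
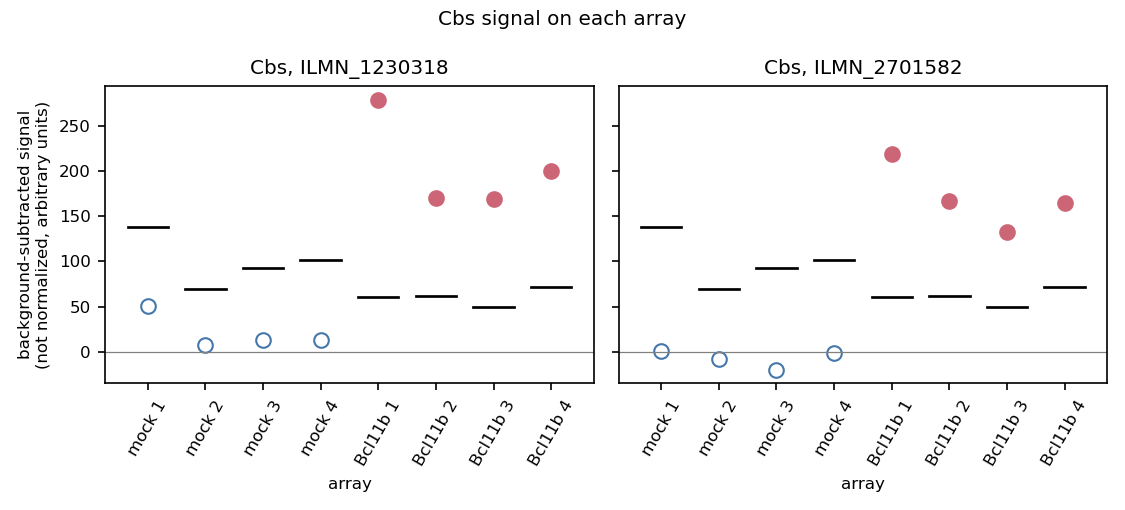
Background-subtracted signal of both Cbs probes on each array, in arbitrary units before normalization. Filled points were detected (detection p under 0.01), open points were not, and the short black bar is the dimmest detected probe on that array. All 8 Bcl11b points lie above their bar, from 132 to 279, and all mock points lie below it.

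After quantile normalization, the log2 signal of ILMN_1230318 was 8.45, 7.87, 8.24 and 7.72 on the Bcl11b arrays (8.07 ± 0.34, SD, n = 4), and that of ILMN_2701582 was 8.12, 7.85, 7.90 and 7.45 (7.83 ± 0.28, SD, n = 4). Bcl11b replicate 4, the array that stood apart, was the lowest of its group on both probes and was detected on both. Since the mock signal was below detection, only a lower bound of the fold change can be given. Set against the dimmest detected signal of each mock array, Cbs was at least 3.36-fold higher with Bcl11b by ILMN_1230318 and at least 2.84-fold higher by ILMN_2701582. Leaving out 1 array at a time, these bounds ranged from 3.07 to 3.64 and from 2.65 to 3.104. Without normalization between arrays the bounds were 2.04 and 1.72.

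A change from no mock array to all 4 Bcl11b arrays detected was found for 19 of 25697 probes (0.0739%), from 18 gene symbols. Cbs was the one symbol with more than 1 probe among them, and by the size of the bound its probes ranked 4 and 6 of the 19. Cbs was selected for its rise on these arrays, so its place and ranks here are a description only. The opposite change, from all 4 mock arrays to no Bcl11b array, was found for 16 probes. The probes most like Cbs were sought among 299 probes that were detected on no mock array and on at least 1 Bcl11b array, by the root-mean-square difference of their centred log2 signals over the 8 arrays. Closest to ILMN_1230318 were 1190002H23Rik (0.377), BC064033 (0.592), 2310007F04Rik (0.985), Serpinb2 (0.991) and Ckmt1 (1.04). Ckmt1 encodes a mitochondrial creatine kinase, and Serpinb2 a plasminogen activator inhibitor. Closest to ILMN_2701582 were Tcfcp2l3 (0.689), 1110055J05Rik (1.08), Serpinb2 (1.303), Chchd2 (1.34) and 2310007F04Rik (1.35). Of these, 1190002H23Rik, BC064033 and Ckmt1 were detected on all 4 Bcl11b arrays, Tcfcp2l3, 1110055J05Rik and Chchd2 on 3, and Serpinb2 and 2310007F04Rik on 1. All points share the same 8 arrays, and signals at the floor have no order. The search took only probes undetected in the mock group, so the likeness to Cbs was partly set by that filter.

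None of the other members went from undetected to detected in this way. Of their 12 probes, 8 were detected on at least 1 array and 6 on all 8. None of these 8 passed the listing threshold used for this experiment, an unadjusted limma p under 0.05 with at least a 1.25-fold change, and none passed an adjusted p under 0.10. On unadjusted p alone the count was also 0. The same listing threshold was passed by 14.8% of the 11755 detected probes (4.32% higher and 10.5% lower with Bcl11b) and by 9.02% of all probes, and the adjusted threshold by 0.981% of all probes. With background correction and normalization by neqc in place of the main processing, 1 of the 8 passed, where 17.0% of the detected probes did.

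Cth encodes cystathionine gamma-lyase, which acts directly after Cbs. Its log2 signal by ILMN_2733193 was 6.43, 7.17, 7.21 and 7.40 on the mock arrays (7.05 ± 0.43, SD, n = 4) and 6.49, 6.32, 6.64 and 7.19 on the Bcl11b arrays (6.66 ± 0.38, SD, n = 4). It was detected on 3 arrays of each group, and the groups overlapped. The log2 difference, Bcl11b minus mock, was −0.39 (SE 0.275, 95% interval −1.05 to 0.27, limma, adjusted p = 0.758). The interval therefore held both no change and a fall of more than 1 log2 unit. The second Cth probe, ILMN_2662719, was at the floor on all 8 arrays, and gives no level.

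Methionine adenosyltransferase makes S-adenosylmethionine. In cells outside the liver its catalytic subunit is encoded by Mat2a, which had 4 probes, all detected on all 8 arrays. The probe with the smallest p, ILMN_1258415, read 10.88, 11.38, 11.23 and 11.35 on the mock arrays and 10.65, 10.69, 10.70 and 11.22 on the Bcl11b arrays. Bcl11b replicates 1 to 3 lay below all mock arrays, and replicate 4 lay within the mock range. The log2 difference was −0.39 (SE 0.172, 95% interval −0.81 to 0.02, limma, adjusted p = 0.506). Probe ILMN_2978838 read 12.83, 13.13, 13.35 and 13.28 on the mock arrays and 12.99, 13.00, 13.00 and 13.19 on the Bcl11b arrays. Its difference of −0.10 (SE 0.122, 95% interval −0.40 to 0.19, limma, adjusted p = 0.888) became 0.15 under another scaling. There each array was instead divided by its median signal over the probes detected on all arrays. Bcl11b replicates 1 to 3 were here almost equal, and all lay above mock replicate 1.

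The remaining Mat2a probes differed by less than the spread between arrays. ILMN_2593368 read 10.16, 11.35, 10.61 and 11.41 on the mock arrays against 10.78, 10.63, 10.71 and 11.78 on the Bcl11b arrays, a log2 difference of 0.09 (SE 0.393, 95% interval −0.85 to 1.04, limma, adjusted p = 1). ILMN_1248368 read 9.40, 10.47, 10.17 and 10.41 against 10.02, 9.89, 9.98 and 10.83, a log2 difference of 0.07 (SE 0.320, 95% interval −0.70 to 0.84, limma, adjusted p = 1). On both probes Bcl11b replicate 4 was the highest and mock replicate 1 the lowest of the 8 arrays. The 4 Mat2a probes thus did not give 1 direction, and their sequences were not used here.

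Mat2b, the regulatory subunit of the same enzyme, had 3 probes. ILMN_2959037 read 10.89, 11.22, 10.81 and 11.01 on the mock arrays and 10.33, 10.27, 10.77 and 11.22 on the Bcl11b arrays, with replicates 1 to 3 again below all mock arrays and replicate 4 above them. The log2 difference was −0.34 (SE 0.231, 95% interval −0.89 to 0.22, limma, adjusted p = 0.746). ILMN_1248381 read 7.19, 8.05, 8.52 and 8.22 against 8.07, 8.22, 8.13 and 8.26, with mock replicate 1 the only array clearly below the others. Its log2 difference was 0.18 (SE 0.281, 95% interval −0.50 to 0.85, limma, adjusted p = 0.986). The probe ILMN_2588505 was not detected on any array.

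Ahcy encodes S-adenosylhomocysteine hydrolase, which releases homocysteine after methyl transfer. Its probe ILMN_2852533 read 6.31, 6.92, 6.48 and 5.84 on the mock arrays and 5.78, 5.07, 6.33 and 7.68 on the Bcl11b arrays. It was detected on 2 mock arrays and on 1 Bcl11b array, replicate 4, which was the highest of all. The log2 difference was −0.17 (SE 0.578, 95% interval −1.57 to 1.22, limma, adjusted p = 1), the widest interval among the detected members.

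The members that act in cysteine breakdown, Cdo1 and Mpst, were not detected. The Cdo1 probe, for cysteine dioxygenase, which starts the route to taurine, had detection p of 0.0576 to 0.199. The Mpst probe, for 3-mercaptopyruvate sulfurtransferase, was undetected at the limit of 0.01 on all 8 arrays, and no fold change is given. Its detection p was 0.186, 0.0564, 0.0426 and 0.0902 on the mock arrays and 0.0113, 0.0251, 0.0213 and 0.0188 on the Bcl11b arrays, so that at a limit of 0.05 it would count as detected on 1 mock and 4 Bcl11b arrays. The normalized log2 signal was 4.47, 5.36, 5.67 and 4.94 against 6.30, 5.94, 6.23 and 5.82. The groups did not overlap (limma, adjusted p = 0.290), which was the case in this direction for 2.05% of all probes. Before normalization the Mpst signals did overlap, at 35.9, 38.4, 60.7 and 41.5 against 59.8, 45.1, 42.9 and 51.4.

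**Figure D2:**
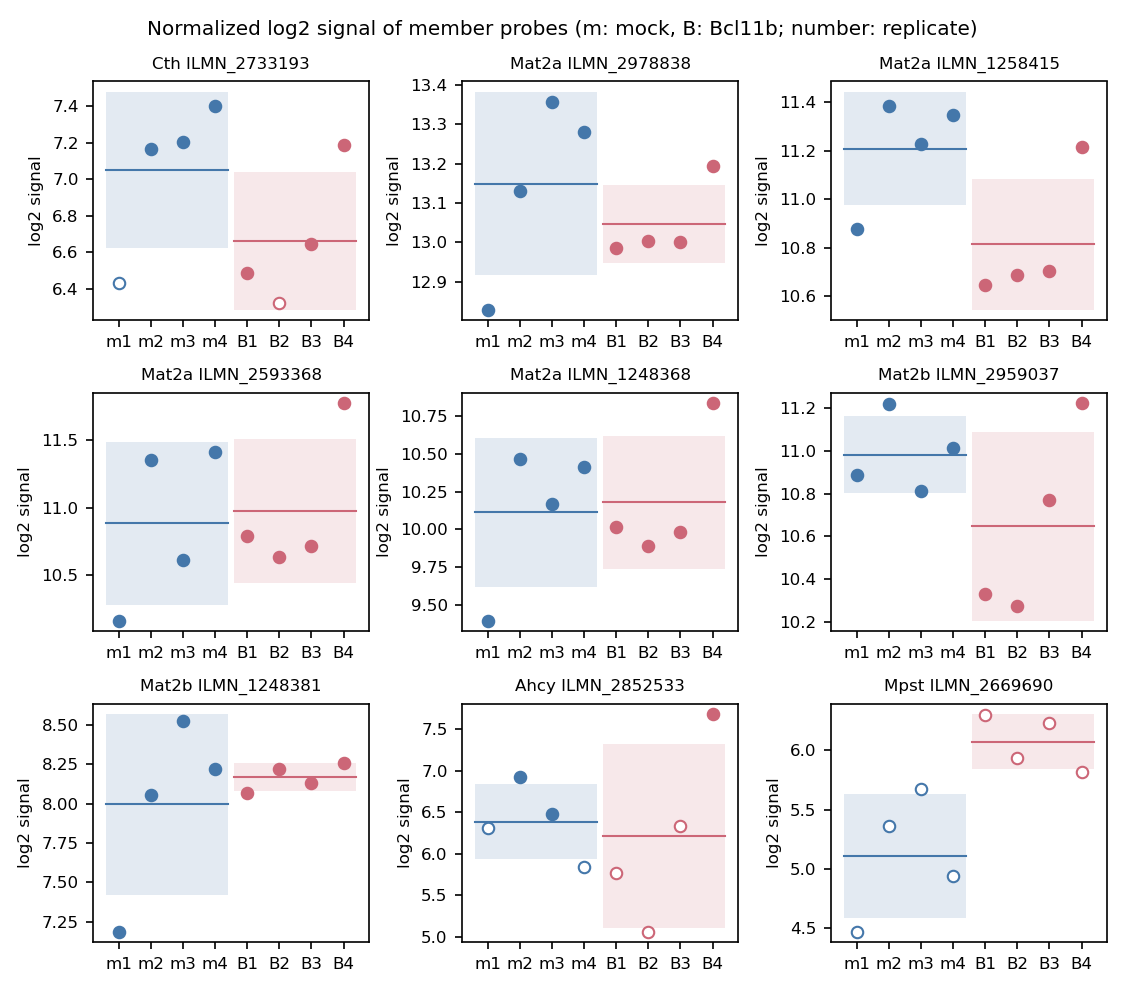
Normalized log2 signal of the 8 detected member probes other than Cbs, and of Mpst, on each array (m, mock; B, Bcl11b; number, replicate). Filled points were detected, the line is the group mean, the band is 1 SD either side (n = 4), and each panel has its own axis. B4 is the highest Bcl11b array on all 8 detected probes, and m1 is the lowest mock array on 6 of them.

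Bcl11b replicate 4 was the highest array of its group on all 8 detected probes other than Cbs, and mock replicate 1 was the lowest of its group on 6. Before normalization, mock replicate 1 had the highest median signal of all arrays (53.9), and Bcl11b replicate 4 the highest of its group (30.2, against 20.1 to 26.0). The part of these array differences in the members' values was not tested. Without Bcl11b replicate 4, 2 of the 8 probes passed the listing threshold, both lower with Bcl11b. The difference of Mat2a ILMN_1258415 was then −0.53 (SE 0.133, limma, adjusted p = 0.223) and that of Mat2b ILMN_2959037 was −0.53 (SE 0.163, limma, adjusted p = 0.292), in each case with no overlap between the groups. Cth was at −0.56 (limma, adjusted p = 0.461) and Ahcy at −0.66 (limma, adjusted p = 0.614). Over the detected probes, leaving out this array raised the share passing the threshold to 19.0%, with 11.3% lower, so that 2 of 8 stands against a background that is itself higher. Without mock replicate 1, where 14.0% of the detected probes passed, 2 of the 8 also did, Cth at −0.60 (limma, adjusted p = 0.483) and Mat2a ILMN_1258415 at −0.50 (limma, adjusted p = 0.390).

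**Figure D3:**
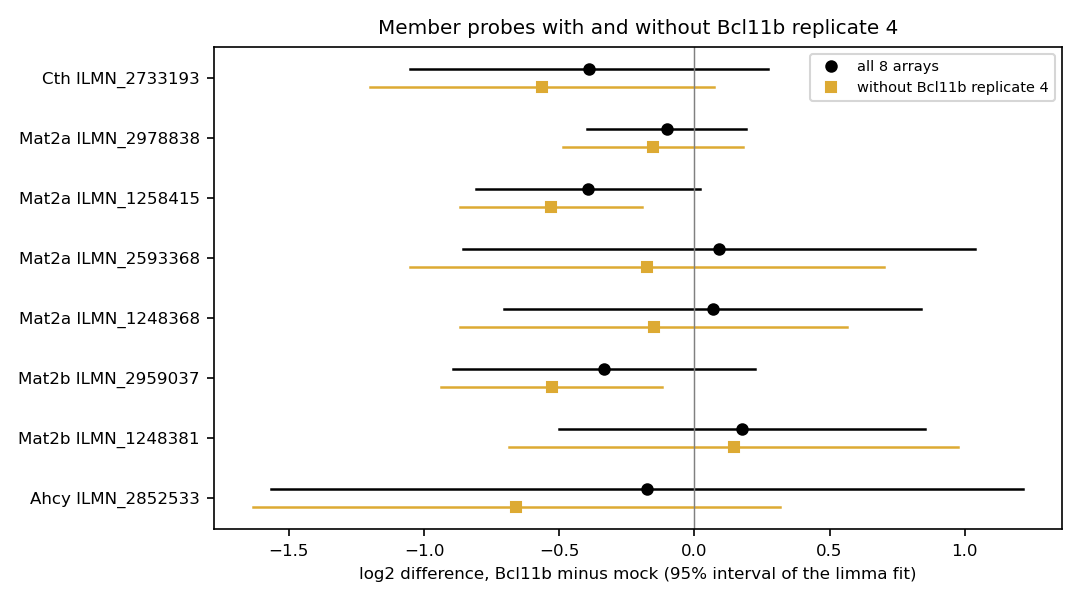
Log2 difference, Bcl11b minus mock, of the 8 detected member probes other than Cbs, with the 95% interval of the limma fit. Circles use all 8 arrays and squares leave out Bcl11b replicate 4. With all arrays every interval includes 0, and without that replicate those of Mat2a ILMN_1258415 and Mat2b ILMN_2959037, both at −0.53, do not.

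The wider pathway was described by a list of 63 further genes of methionine, folate, cobalamin, serine, sulfur and polyamine metabolism, of which 60 were on the array and 44 were detected, each represented by 1 probe. Of the 44 genes, 7 passed the listing threshold (15.9%, against 14.8% of all detected probes), 3 of them higher and 4 lower with Bcl11b. At an adjusted p under 0.10, 1 of the 44 passed. That threshold was passed by 0.981% of all probes, detected or not, and the share among detected probes alone was not computed. The groups did not overlap for 4 of the 44, where 10.1% of detected probes had groups that did not overlap. The median log2 difference was 0.0011 over the 44 genes and −0.016 over all detected probes. The pathway as a list was thus close to the array as a whole.

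Among the genes that passed, Chac1 and Slc7a11 had the smallest adjusted p by limma, as the extremes of a list close to the array as a whole. Chac1 (1810008K03Rik on the array), a glutathione-degrading enzyme induced in the response to amino acid shortage, read 11.96, 11.73, 11.81 and 11.77 on the mock arrays and 11.50, 11.20, 11.34 and 11.27 on the Bcl11b arrays. It fell by 0.49 on the log2 scale (SE 0.0807, limma, adjusted p = 0.0841), with no overlap between the groups. Slc7a11, the cystine and glutamate exchanger that supplies cells with cystine, read 8.45, 8.46, 8.37 and 8.73 against 8.12, 7.86, 8.07 and 8.20. It fell by 0.44 (SE 0.104, limma, adjusted p = 0.199), also with no overlap. Its partner chain Slc3a2 was at −0.35 (SE 0.298, limma, adjusted p = 0.802), and the methionine and leucine transporter Slc7a5 at −0.16 (SE 0.111, limma, adjusted p = 0.748). Ggct (A030007L17Rik), which acts on gamma-glutamyl peptides, was at 0.90 (SE 0.363, limma, adjusted p = 0.462) with overlapping groups. The glutathione synthesis genes did not pass, with Gclc at −0.54 (SE 0.298, limma, adjusted p = 0.658) and Gss at 0.40 (SE 0.204, limma, adjusted p = 0.610).

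Among the sulfide genes, Sqrdl, which oxidises hydrogen sulfide in mitochondria, was detected on all 4 mock arrays and on no Bcl11b array. Its log2 signal was 6.93, 6.40, 6.54 and 7.08 in the mock group and 6.13, 5.44, 4.99 and 4.06 in the Bcl11b group. As the Bcl11b values were below detection, only a bound can be given, at least 1.29-fold lower with Bcl11b. The limma fit to the signals as normalized, which include those below detection, gave an adjusted p of 0.279. The groups did not overlap, and Bcl11b replicate 4 was the lowest. Ado (Gm237), which oxidises cysteamine toward taurine, was at 0.61 (SE 0.252, limma, adjusted p = 0.480) with overlapping groups. Tst, a sulfurtransferase related to Mpst, was at 0.64 (SE 0.294, limma, adjusted p = 0.542), and Csad, of taurine synthesis, at 0.35 (SE 0.317, limma, adjusted p = 0.802).

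In the folate list, the serine hydroxymethyltransferase Shmt1 was at 0.41 (SE 0.224, limma, adjusted p = 0.661) and Aldh1l2 at −0.30 (SE 0.131, limma, adjusted p = 0.507). In the cobalamin list, Mmab, which makes adenosylcobalamin, was at −0.33 (SE 0.119, limma, adjusted p = 0.391) with overlapping groups. A second Mmab probe detected on all arrays was at −0.42, and 2 dimmer ones were at 0.19 and 0.16. The cobalamin receptor Cd320 (425O18-1) was at 0.32 (SE 0.409, limma, adjusted p = 0.914) and Mmadhc (2010311D03Rik) at −0.13 (SE 0.151, limma, adjusted p = 0.892).

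None of the 3 detected non-member genes of the methionine cycle passed, nor did any of the 2 serine synthesis genes or the 8 polyamine and salvage genes. Ahcyl1 and Ahcyl2 (4631427C17Rik), relatives of Ahcy, were at −0.25 (limma, adjusted p = 0.923) and 0.22 (limma, adjusted p = 0.802). Phgdh and Psat1, which make the serine that Cbs joins to homocysteine, were at 0.19 (limma, adjusted p = 0.941) and −0.25 (limma, adjusted p = 0.772). Amd1, which decarboxylates S-adenosylmethionine for polyamine synthesis, was at −0.68 (SE 0.283, limma, adjusted p = 0.482). Spermidine synthase, Srm, was at 0.47 (SE 0.227, limma, adjusted p = 0.573) by the probe used for the list, while its other probes gave 0.56 (limma, adjusted p = 0.436) and 0.61 (limma, adjusted p = 0.309), both past the listing threshold and without overlap between the groups. The liver enzymes of methionine handling, Mat1a, Bhmt, Bhmt2 and Gnmt, were not detected. Over 16 alternative settings a call at the listing threshold was gained by Amd1 in 7, by Tst in 5 and by other pathway genes in fewer. The call of Ado was lost in 11, that of Mmab in 9 and that of Ggct in 7, while those of Chac1, Slc7a11 and Sqrdl were lost in none. At an adjusted p under 0.10, however, Chac1 no longer passed in 12 of the 16 settings, and its adjusted p by limma ranged over the 16 from 0.0559 to 0.246.

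**Figure D4:**
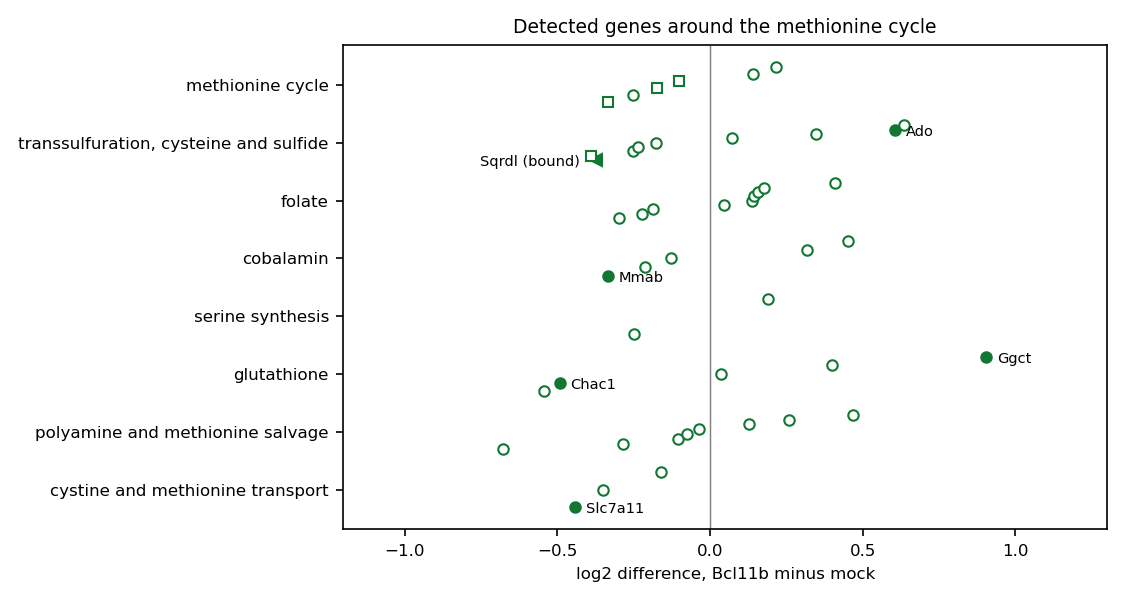
Log2 difference, Bcl11b minus mock, of the detected genes reported here by pathway list, 1 point a gene. Filled points passed an unadjusted p under 0.05 with at least a 1.25-fold change, squares are the members Cth, Mat2a, Mat2b and Ahcy, and the triangle is the bound for Sqrdl, whose Bcl11b signals were below detection. Cbs, which has only a bound, is not drawn. Of the 7 genes that passed, 6 are drawn, from Chac1 and Slc7a11 on the lower side to Ado and Ggct on the higher.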

How the data were processed

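RNA of 8 transfections of STHdh striatal cells (4 Bcl11b, 4 empty pcDNA3.1) had been hybridized to Illumina MouseRef-8 arrays. The deposited table holds, per array and probe, the signal intensity and detection p-value that the authors obtained with GenomeStudio. The deposited intensity is background-subtracted and not normalized: between 30.6% and 31.6% of the values per array are at or below 0, and array medians differ. All 25697 probes (18120 symbols) were kept. Intensities were quantile-normalized, set to at least 1, and log2-transformed, and groups were compared with limma 3.58.1 in R 4.3.3 (lmFit, eBayes) with Benjamini-Hochberg adjustment over all probes. As 5255 probes were at the floor of 1 on all arrays, limma offset their zero variances. The study used quantile normalization and limma as well.

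Genes were named from the symbol column of the table, older symbols being matched through RefSeq gene tables, and promoter windows came from RefSeq (GRCm38.p6). Named were all member probes, pathway genes past the listing threshold and otherwise up to 2 genes a list with the largest change among those detected on all arrays. A pathway gene was represented by the probe detected on most arrays, and 1 gene that is in the counts is not reported here by name or value. Members and lists were chosen with earlier results of these data known. On simulated data for Bcl11b against mock, with 200 of 25697 probes changed by 1 log2 unit, 92.5% were recovered at the listing threshold and 55.5% at an adjusted p under 0.10. Of the unchanged probes, 3.84% passed the listing threshold. At the adjusted threshold, 14 unchanged probes passed beside 111 changed ones. The 200 probes were drawn only from those detected on all arrays, and the simulated noise was independent between arrays. These rates therefore do not cover dimmer probes, such as those of Cth, Ahcy and Mpst, or an array that stands apart. Other normalizations, an offset, filters, array weights, a replicate block, a variance trend and leaving out each array were tried as alternatives.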

Additional observations from a re-analysis of the deposited data

Results flagged for a closer look

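Within the Bcl11b group, replicate 4 lay far from the other arrays, by the gap to its nearest neighbour over the group's range, on all 4 Mat2a probes. Its log2 signal was 13.19 by ILMN_2978838, 11.22 by ILMN_1258415, 11.78 by ILMN_2593368 and 10.83 by ILMN_1248368, in each case the highest of the group. Its median correlation with the other Bcl11b arrays, 0.933, was set apart in the same way, against 0.988 to 0.991 for the other Bcl11b arrays. These were 5 of 24 groups of values examined, where chance gives about 1 in 20. Over the 9360 probes detected on all arrays, the same array lay this far out on 13.5%, on the high side on 5.32%, and every other array on 0.267% to 1.57%. The 4 Mat2a probes measure 1 gene and are not independent.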

How the results depend on the processing

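Cbs was selected for its rise on these arrays, so its bounds under other settings are a description only. The bounds were not recomputed with the detection filter, the replicate block, the variance trend or array weights. They were 2.04 and 1.72 (ILMN_1230318 and ILMN_2701582) without normalization between arrays, where the median log2 difference of all probes was −0.49, and 5.72 and 4.84 at a detection limit of 0.05. Leaving out 1 array at a time gave 3.07 to 3.64 and 2.65 to 3.104. The count of member probes passing was 0 of 8 in the main processing. It was 4 without normalization, 1 with neqc and 3 with array weights, settings in which 48.7%, 17.0% and 22.9% of detected probes passed. Without 1 array it was 0 to 2, where 9.77% to 20.9% of detected probes passed. A detection limit of 0.05 added Mpst to the probes counted, and the count was then 1 (Mpst). No share of all probes was computed for that limit. The count of pathway genes, 7, became 19 without normalization, 11 with array weights and 4 to 10 without 1 array, against the same shares of detected probes. Over all probes 2317 passed the listing threshold, 6963 without normalization, 2292 with neqc, 3443 with array weights and 1632 to 3053 without 1 array. At an adjusted p under 0.10, 252 probes passed, 57 without normalization, 413 with neqc, 45 with a variance trend, 642 with array weights and 87 to 637 without 1 array. The causes of these shifts were not tested.

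Without normalization the log2 difference turned sign for Mat2a ILMN_2593368 (−0.57), Mat2a ILMN_1248368 (−0.63), Mat2b ILMN_1248381 (−0.55), Ado (−0.12), Ahcyl2 (−0.52), Tst (−0.063), Csad (−0.38), Shmt1 (−0.29), Cd320 (−0.44), Phgdh (−0.43), Gss (−0.31) and Srm (−0.028). With array weights it did so for Mat2a ILMN_2593368 (−0.18) and Mat2a ILMN_1248368 (−0.17). With each array divided by its median over the probes detected on all arrays, it did so for Mat2a ILMN_2978838 (0.15), Psat1 (0.15) and Slc7a5 (0.10). Leaving out 1 array at a time, the difference ranged from −0.66 to 0.21 for Ahcy, −0.18 to 0.27 for Mat2a ILMN_2593368, −0.17 to 0.19 for Mat2a ILMN_1248368 and −0.093 to 0.35 for Mat2b ILMN_1248381.

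The labels number the replicates of both groups 1 to 4. Deviations of same-numbered arrays from their group means correlated at 0.677, −0.630, 0.182 and 0.695, and only numbers 1 and 4 correlated best with their own, so the numbers were not taken to pair the samples. With the replicate number as a block, 1 member probe passed, Mat2a ILMN_1258415 (−0.39, limma, adjusted p = 0.445), where 14.2% of detected probes passed, and 45 probes passed at an adjusted p under 0.10.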
